A study of Homo sapiens with 12 samples.

Results

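Olfactory receptors are receptors of 7 membrane-spanning helices that odorants bind in the cilia of sensory neurons of the nose. Each such neuron chooses a single receptor gene, and the other receptor genes of that cell stay silent. In vertebrates the receptors fall into class I, families 51 to 56 in the human nomenclature, which were first described in fish and often bind carboxylic acids, and class II, which make up most of the mammalian repertoire. Human class I genes lie in a cluster on the short arm of chromosome 11 that encloses the beta-globin genes. The genes described here are the class I members, taken by symbol: family number 51, 52, 55 or 56 followed by letters and a number. The deposited tables held 18 of them among 18665 genes, and 146 class II genes (families 1 to 14) served as the nearest comparator. The rule takes members by symbol alone and not by level, but it was set with earlier results of these data known.

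RNA was sequenced after probe capture from HT29, a human colon carcinoma cell line, in 12 libraries that form 4 groups of 3. For the CM10 group HT29 cells were given CM10, a small-molecule inhibitor of the ALDH1A family of aldehyde dehydrogenases, and the group CTRL_CM10 holds the matching control libraries. For the shZBTB7B group HT29 cells carried a hairpin that targets ZBTB7B, a zinc-finger transcription factor, and the group CTRL_shZBTB7B holds its control libraries. The study asked what changes when either protein is blocked. Per the study's text, CM10 was given at 10 µM for 2 h. The labels do not say what the control cells received or whether the hairpin cells were 1 clone. Nothing in them says that the 3 replicates of a group were separate cultures, so p-values here measure the spread between libraries, which may be technical.

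Levels are in TPM, a transcript abundance corrected for transcript length and scaled to the same total in every library. The sequencing depth behind a value is therefore unknown, and no counting interval can be given. The level of ZBTB7B, the hairpin's target, was 22.34, 25.06 and 25.36 TPM in the 3 CTRL_shZBTB7B libraries, and 2.55, 5.97 and 0 TPM in shZBTB7B libraries 1, 2 and 3. In CTRL_CM10 replicates 1 to 3, controls of the other comparison, it was 1.7, 7.65 and 12.43 TPM, which overlaps the hairpin values. The 12 libraries were unlike one another. Genes listed above 0 numbered 8493 to 16245 per library, and of the 1888 genes whose mean reached 50 TPM, 8 to 368 were at exactly 0 in a given library. A value of 0 is for that reason described only as listed at 0. Genes whose coding transcripts carry 18-base words found at 1000 or more positions of chromosome 11 took 64.6% to 81.9% of the TPM in 5 libraries (CM10 replicates 1 to 3 and shZBTB7B replicates 1 and 3) and 5.3% to 25.7% in the other 7. All 3 CM10 libraries are among those 5, so this difference between libraries and the exposure to CM10 cannot be told apart. Genes of the MTRNR2L family took 73.8% of the TPM in CTRL_CM10 replicate 2, 46.0% in CTRL_CM10 replicate 3 and 29.9% in shZBTB7B replicate 2. In every other library they took at most 10.4%. Such a share lowers the TPM of all other genes of its library. The label HT29 was checked against marker genes. Of 9 colon epithelium genes, 0 to 7 were at 0 in a library, and their summed level ran from 16.5 to 1919.37 TPM. The keratin KRT8 was above 0 in all 12 libraries (13.06 to 1095.15 TPM), KRT18 in 11, and the epithelial genes EPCAM and CDH17 in 10 each. CDX2, the transcription factor that defines intestinal epithelium, was listed at 0 in 8 libraries and was at most 5.32 TPM in the other 4. Genes of other tissues were present beside these: 5 of 6 erythroid genes were above 0 in 5 libraries, and summed levels ran from 1.82 to 55015 TPM for 5 gastric genes, from 45.01 to 60570 TPM for 5 smooth muscle genes and from 8.82 to 4042.26 TPM for 7 leukocyte genes. The markers thus go against the label in part and with it in part, and the libraries are named below by their labels only.

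The 18 members lay on chromosome 11 between positions 4658707 and 6191556 of GRCh37, a span of 1533 kb that held 30 genes of the tables. Of the 55 coding class I genes that the annotation lists, 16 were members. The other 2 members, OR51H1 and OR51J1, are annotated as pseudogenes. The coding sequence of each of the 16 was 930 to 987 bases long and lay in 1 exon, as is usual for olfactory receptors. Between pairs of members the coding sequences were 51.1% to 78.2% identical, with a median of 56.25% over 120 pairs, so they are related but far from identical. OR56A3 and OR56A4 were the closest pair at 78.2%, with a longest shared run of 78 bases. OR51E1 and OR51E2 were 65.0% identical with a longest shared run of 17 bases. The annotated spans of 8 members overlap a gene of another kind, and whether reads were counted by strand is not given in the sources used here, so values of those 8 are uncertain. OR51B4, OR51B5, OR52N2, OR52N4 and OR56B1 are the ones among them that were above 0 in any library.

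Olfactory receptors carry a conserved stretch at the inner end of the third helix, where the codons for Asp-Arg-Tyr sit. Among the 16 coding members, 11 held these 3 codons in frame. The stretch is shown for the 4 members with the highest mean level, since these carry most of the signal described below, with the Asp-Arg-Tyr codons in capitals (39 bases, 5′ to 3′, read on the coding strand from GRCh37 chromosome 11).
OR51E2: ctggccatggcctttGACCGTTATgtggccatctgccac
OR51V1: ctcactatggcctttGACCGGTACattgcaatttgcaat
OR51E1: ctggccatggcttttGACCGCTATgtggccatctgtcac
OR52N4: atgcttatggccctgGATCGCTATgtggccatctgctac
The OR51E2 stretch is coding bases 343 to 381, that of OR51E1 and of OR51V1 355 to 393, and that of OR52N4 352 to 390, counted from the first base of the start codon.

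Most member values were 0, but the set was not listed at 0 throughout. Of 216 values (18 members in 12 libraries), 192 (88.9%) were listed at 0 and 24 (11.1%) were above 0. Values of at least 1 TPM numbered 13, and 4 were at least 10 TPM. The 8 members listed at 0 in all 12 libraries were OR51H1, OR51I2, OR51J1, OR52A1, OR52B2, OR56A3, OR56A4 and OR56B4, which is 44.4% of the set and includes both pseudogenes. Another 6 members were above 0 in a single library, and 4 in more than 1 library. No member was above 0 in all 12 libraries, and the most widely listed one, OR51E2, was above 0 in 9. By the listed values, the label of a silent background thus fits 8 members in all 12 libraries and the other 10 only in part. A listed 0 does not show silence, since the depth behind it is unknown.

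**Figure D1:**
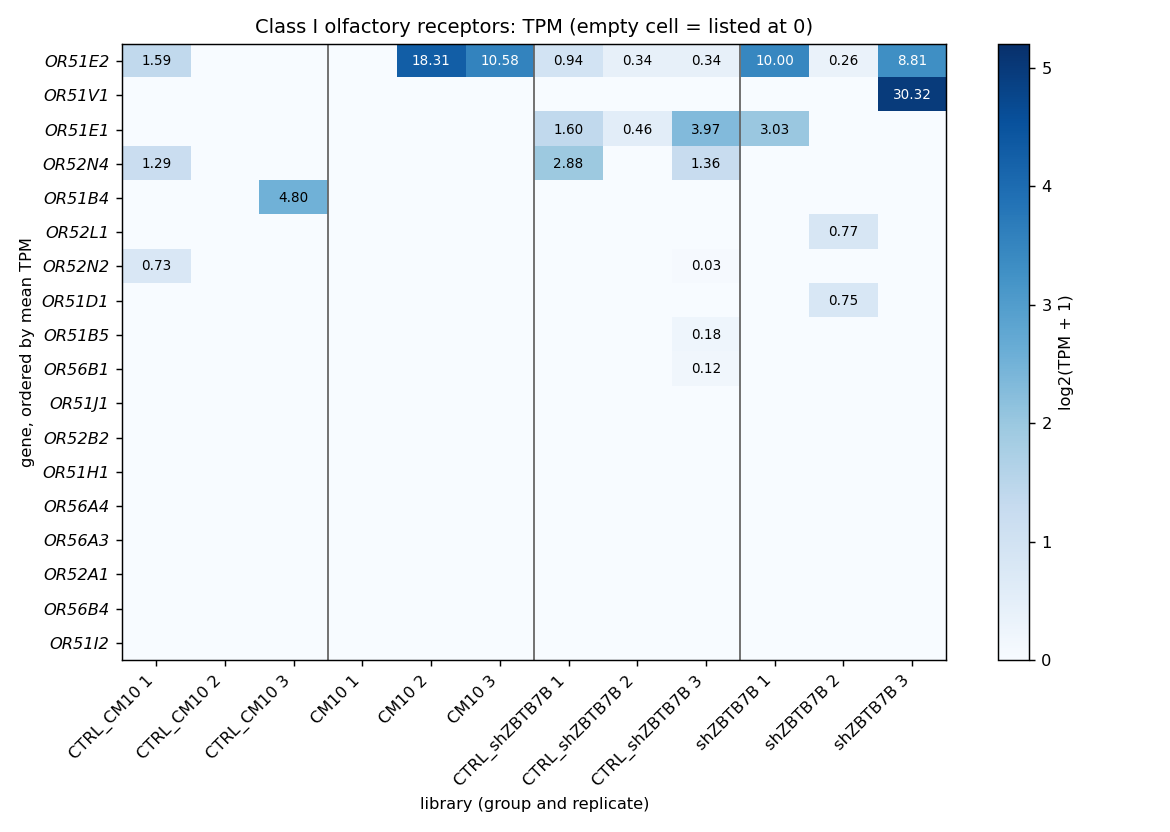
TPM of each of the 18 class I olfactory receptors (rows) in each of the 12 libraries (columns, by group and replicate), with colour for log2(TPM + 1) and the TPM written in each cell above 0. Of the 216 cells 192 are empty, which means listed at 0, and OR51E2 is the row with the most cells above 0 (9 of 12).

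The level that was present sat in few genes. Summed over members and libraries it came to 103.46 TPM, of which OR51E2 held 49.5% and the top 3 members (OR51E2, OR51V1 and OR51E1) 87.5%. OR51E2 and OR51V1 were the members whose mean over the 12 libraries reached 1 TPM. OR51E2 had the highest mean, 4.264 TPM.

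OR51E2, also known as the prostate-specific G protein-coupled receptor, binds short-chain fatty acids and is known from prostate, airway, kidney and blood vessels as well as from the nose. It lies at positions 4701401 to 4719084 on the minus strand, in 2 exons, the coding part in 1 of them. In CTRL_CM10 replicates 1 to 3 it was at 1.59, 0 and 0 TPM, and in CM10 replicates 1 to 3 at 0, 18.31 and 10.58 TPM. Of the CM10 libraries 2 were above every control, while CM10 replicate 1 shared the value of 0 with 2 controls, so the groups overlapped. In CTRL_shZBTB7B replicates 1 to 3 it was at 0.94, 0.34 and 0.34 TPM, and in shZBTB7B replicates 1 to 3 at 10, 0.26 and 8.81 TPM. Again 2 of the 3 perturbed libraries were above all controls and 1 was below them. The 4 libraries above 8 TPM are all among the 5 in which repeat-carrying genes took 64.6% to 81.9% of the TPM, where OR51E2 ran from 0 to 18.31 TPM, and in the other 7 libraries it did not exceed 1.59 TPM. The OR51E2 transcripts themselves carry such repeated words at 73 positions, none of them in the coding part. The part of these repeats in the OR51E2 values was not tested. KLK2, a defining prostate gene, was listed at 0 in 11 libraries and at 0.34 TPM in CTRL_CM10 replicate 3, while the summed level of 4 prostate genes ran from 2.01 to 44.26 TPM.

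OR51E1, the neighbour of OR51E2 24.7 kb away on the plus strand (4664650 to 4676718), responds to fatty acids and is likewise known from prostate and from enterochromaffin cells of the gut. It was listed at 0 in all 6 CTRL_CM10 and CM10 libraries. In CTRL_shZBTB7B replicates 1 to 3 it was at 1.60, 0.46 and 3.97 TPM, and in shZBTB7B replicates 1 to 3 at 3.03, 0 and 0 TPM. It was thus present in all 3 controls of the hairpin and in 1 hairpin library, whose value lay inside the range of the controls. Its transcripts carry none of the repeated words. OR51E1 and OR51E2 were both above 0 in 4 libraries, with OR51E1 the higher of the pair in 3 of these, CTRL_shZBTB7B replicates 1 to 3, and OR51E2 in shZBTB7B replicate 1.

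**Figure D2:**
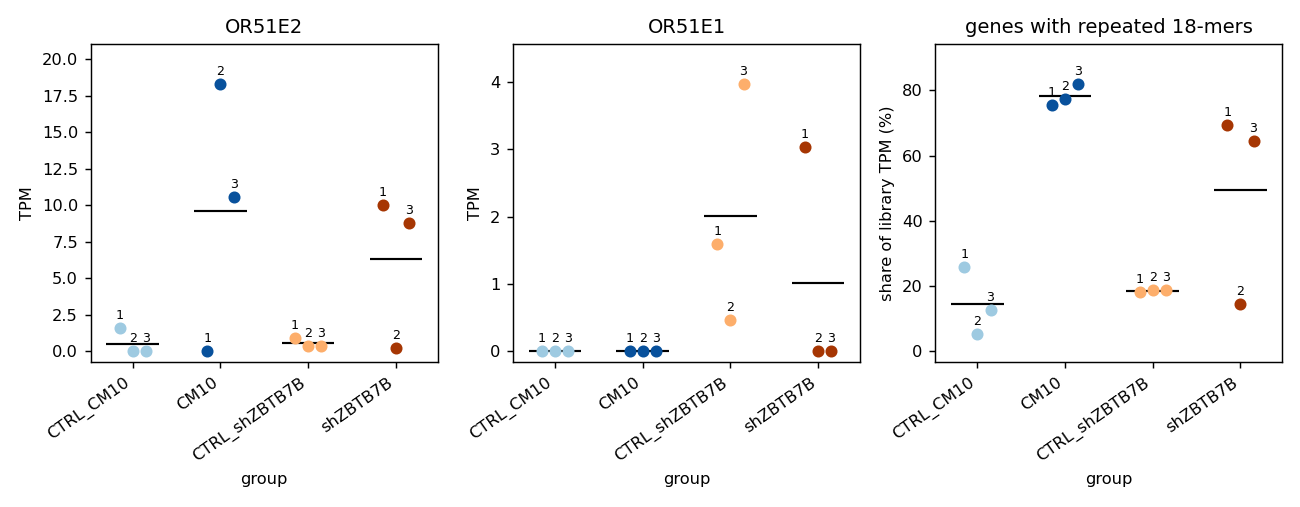
TPM of OR51E2 and OR51E1 in each library (points, numbered by replicate, with a line at the group mean), and beside them the percent of each library's TPM in genes that carry the repeated words. OR51E2 reaches 18.31 and 10.58 TPM in CM10 libraries and 10 and 8.81 TPM in shZBTB7B libraries, with at least 1 library of each of these groups at or below its controls, and OR51E1 does not exceed 3.97 TPM.

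OR51V1, another receptor of family 51, had the highest single value of the set. It was at 30.32 TPM in shZBTB7B replicate 3 and listed at 0 in the other 11 libraries. OR51V1 has a single exon at 5220965 to 5221912, on the minus strand and 24.8 kb from the beta-globin gene HBB. HBB was at 1363.64 TPM in that same library and at 2205.29 TPM in CM10 replicate 2, where OR51V1 was listed at 0. A link between the levels of these genes was not tested.

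The remaining members above 0 were low. OR52N4 was at 1.29 TPM in CTRL_CM10 replicate 1 and at 2.88 and 1.36 TPM in CTRL_shZBTB7B replicates 1 and 3, so its 3 values were all in control libraries. Its close relative OR52N2 (72.9% identical in the coding part) was at 0.73 TPM in CTRL_CM10 replicate 1 and at 0.03 TPM in CTRL_shZBTB7B replicate 3, both libraries in which OR52N4 was above 0 as well. OR51B4, which has been described in colon carcinoma cells, was at 4.80 TPM in CTRL_CM10 replicate 3 and listed at 0 in the other 11 libraries. OR51B5, known from leukaemia cells and 1.5 kb from OR51B4, was above 0 in 1 library, at 0.18 TPM in CTRL_shZBTB7B replicate 3. OR56B1 was at 0.12 TPM in that same library. OR52L1 and OR51D1 were at 0.77 and 0.75 TPM in shZBTB7B replicate 2 and at 0 elsewhere. By library, 6 members were above 0 in CTRL_shZBTB7B replicate 3, the highest number of the 12, and 0 to 3 in each of the others.

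The lowest level above 0 that a library listed for any olfactory receptor of either class differed between libraries. It was 0.83 to 2.15 TPM in the 5 libraries rich in repeat-carrying genes and 0.02 to 0.51 TPM in the other 7, so a level such as the 0.12 TPM of OR56B1 was below the lowest receptor value listed in the former. Of member values, 6 of 90 (6.7%) were above 0 in the 5 libraries and 18 of 126 (14.3%) in the 7. The highest member value was 30.32 TPM in the 5 and 4.80 TPM in the 7. CTRL_shZBTB7B replicate 3 alone held 6 of the 18. The share of all genes above 0 was also lower in the 5 libraries, at 45.5% to 69.92%, than in the 7, at 70.92% to 87.03%. Fewer members were thus listed above 0 in the 5 libraries, as were fewer genes of any kind, and the members there were at higher levels. The part of depth in this was not tested.

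Class I and class II receptors did not differ beyond the spread between libraries in how often they were listed above 0. Over the 12 libraries 11.1% of class I and 8.7% of class II values were above 0, against 69.7% of the values of all genes. Members above 0 were 16.67%, 0% and 5.56% of the set in CTRL_CM10 replicates 1 to 3, 0%, 5.56% and 5.56% in CM10, 16.67%, 11.11% and 33.33% in CTRL_shZBTB7B, and 11.11%, 16.67% and 11.11% in shZBTB7B. Class II receptors lay between 4.11% and 13.70% in every library. The share of class I minus that of class II was 2.38 ± 8.16 percentage points (mean ± SD, n = 12 libraries), negative in 5 libraries, with a two-sided exact sign-flip permutation p of 0.395. Within the tables it was -1.18 ± 4.42 points for the CM10 table (n = 6, exact permutation p = 0.625) and 5.94 ± 9.83 points for the shZBTB7B table (n = 6, exact permutation p = 0.1562). In the 7 libraries with 5.3% to 25.7% of their TPM in repeat-carrying genes it was 4.60 ± 9.65 points (exact permutation p = 0.25, chosen after the data were seen), and in the other 5 it was -0.73 ± 4.78 points (exact permutation p = 0.75). Without receptors that carry the repeated words it was 0.42 points over the 12 libraries (exact permutation p = 0.9248). CTRL_shZBTB7B replicate 3 carried most of the mean, which was 0.37 points without it.

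**Figure D3:**
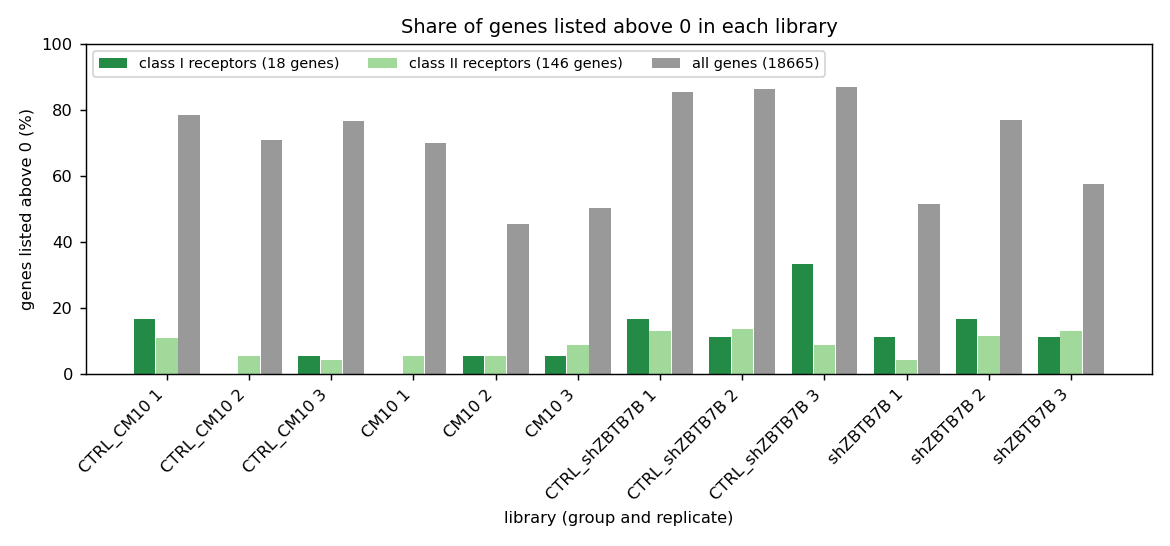
Share of genes listed above 0 (percent, 0 to 100) in each library for the 18 class I receptors, the 146 class II receptors and all 18665 genes. Both receptor classes lie far under the bars of all genes (45.50% to 87.03%), and the class I bar is missing in CTRL_CM10 replicate 2 and CM10 replicate 1, where it is 0%.

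Other counts of the classes lay near each other. Of class II receptors, 70 (47.9%) were listed at 0 in all 12 libraries, beside 44.4% of class I and 3.28% of all genes. A mean of 1 TPM or more was seen for 17 class II receptors (11.6%) and 2 class I receptors (11.1%). The repeated words were in the transcripts of 4 of the 16 class I receptors searched (OR51E2, OR51D1, OR52A1 and OR56A4) and of 27 of the 142 class II receptors searched, and in 27.5% of all genes searched.

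Both the number of members above 0 and their summed level overlapped between each perturbation and its controls. CM10 libraries had 0.67 ± 0.58 members above 0 and their controls 1.33 ± 1.53 (n = 3 each, two-sided exact permutation p = 0.9). The log2 of the summed member TPM plus 1 was 2.6 ± 2.28 in CM10 libraries and 1.58 ± 1.38 in controls (difference 1.02, exact permutation p = 0.6), and without OR51E2 the difference turned to -1.38. shZBTB7B libraries had 2.33 ± 0.58 members above 0 and their controls 3.67 ± 2.08 (exact permutation p = 0.7), and the summed level was 3.54 ± 1.94 against 2.11 ± 1.1 on the same log2 scale (difference 1.42, exact permutation p = 0.4). Rescaled without MTRNR2L genes, the difference in summed level was 0.76 in CM10 (exact permutation p = 0.6) and 1.48 in shZBTB7B (exact permutation p = 0.4). With 3 libraries a group the test cannot go below 0.1. In bulk RNA, fewer cells expressing a receptor and less of its RNA per cell cannot be told apart.

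Across all genes, tested with limma on log2(TPM + 1) with Benjamini-Hochberg adjustment, 4003 of 12529 genes (31.9%) were called at an adjusted p under 0.05 in CM10 against CTRL_CM10, 1705 (13.6%) higher and 2298 (18.3%) lower. In shZBTB7B against CTRL_shZBTB7B it was 1602 of 13665 genes (11.7%), 98 (0.717%) higher and 1504 (11%) lower. The median log2 fold change of all genes tested was -1 in CM10 and -1.45 in shZBTB7B, and with quantile normalization it was -0.27 and -0.23. The balance in CM10 turned with single libraries: genes called higher were 42.6% of the calls, 34% without CM10 replicate 1 and 71% without CTRL_CM10 replicate 1. The number of CM10 calls was 2181 without CTRL_CM10 replicate 1, 1257 without CTRL_CM10 replicate 3, 1726 without CM10 replicate 2 and 2289 without CM10 replicate 3. Changes below are given as fitted, with the value relative to that median where it bears on them. Calls in the hairpin comparison depended on single libraries: limma called 0 genes (3327 to 4581 at an unadjusted p under 0.05) without any 1 of CTRL_shZBTB7B replicates 1 to 3 or shZBTB7B replicates 1 and 3, and 6887 without shZBTB7B replicate 2.

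Of the 18 members, 1 passed the filter on low values in each table (at least 1 TPM in at least 3 of 6 libraries), and limma called 0 in either direction (at an unadjusted p under 0.05, 1 in CM10 and 0 in shZBTB7B). In CM10 this was OR51E2, with a log2 fold change of 2.14 (SE 0.96, limma unadjusted p = 0.03785, adjusted p = 0.08672), or 3.14 relative to the median of all genes. Its adjusted p ran from 0.009517 to 0.322 over the alternatives, and without CM10 replicate 1, the library listed at 0, it was called at 0.009517 with a log2 fold change of 3.44. In shZBTB7B it was OR51E1, with a log2 fold change of -0.74 (SE 0.70, limma adjusted p = 0.4255), or 0.71 above the median, and its sign turned with quantile normalization (0.64, limma adjusted p = 0.5782, range 0.2027 to 0.7735 over the alternatives). OR51E2 did not pass the filter in the shZBTB7B table. In a limma fit with no filter its log2 fold change there was 1.76 (SE 0.94, adjusted p = 0.2492). Among class II receptors 6 were tested in CM10, of which 3 (OR1F1, OR3A2 and OR7D2, named after their values were seen) were called higher, and 2 in shZBTB7B, of which 1 (OR2A1, likewise) was called lower. OR2A1 passed the filter through its control libraries alone, so a call could only be in the lower direction. With 1 member tested per comparison, a share of members called cannot be set beside the 31.9% and 11.7% of all genes.

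The genes that a receptor needs to signal were next examined. In olfactory neurons a bound receptor activates the G protein alpha subunit GNAL, which drives the adenylyl cyclase ADCY3, and cyclic AMP then opens a channel of CNGA2, CNGA4 and CNGB1 subunits. Of the olfactory neuron genes, OMP, CNGA4 and STOML3 were at or near 0, while CNGB1 and RTP1 were above 0 in most libraries. OMP, the marker protein of mature olfactory neurons, was at 0.88 TPM in CTRL_shZBTB7B replicate 3 and listed at 0 in the other 11 libraries. CNGA4 was at 0.30, 0.29 and 0.07 TPM in the 3 CTRL_shZBTB7B libraries and listed at 0 elsewhere, and STOML3 was at 0.22 TPM in CTRL_shZBTB7B replicate 1 alone. CNGB1, whose transcripts carry the repeated words, was above 0 in 9 libraries, at 1.6, 1.12 and 2.18 TPM in CM10 and at 3.66, 0.14 and 20.93 TPM in shZBTB7B, and at 0.87 TPM or less in every control. GNAL, which other tissues use too, was above 0 in 11 libraries, with 10.45 TPM the highest and 0 the lowest. The summed level of 7 olfactory neuron genes was 1.56 to 93.73 TPM, and the highest sum, in shZBTB7B replicate 3, included 68.17 TPM of RTP1, a protein that carries receptors to the cell surface. RTP1 was listed at 0 in all 3 CTRL_shZBTB7B libraries and RTP2, its relative, in all 12.

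Of 17 cascade genes in the tables, 14 were tested in each comparison. In CM10, limma called 4 higher and 2 lower, where 13.6% and 18.3% of all genes were called, and the median log2 fold change was 0.46 beside -1 for all genes. NCAM2, an adhesion molecule of olfactory axons, was at 142.59, 0.54 and 5.77 TPM in CTRL_CM10 replicates 1 to 3 and at 1338.26, 1169.77 and 1319.14 TPM in CM10 (log2 fold change 6.80, limma adjusted p = 0.003521). GRK3, a kinase that desensitises odorant receptors, was at 84.67, 1.38 and 2.74 TPM in the controls and at 1141.69, 892.02 and 922.75 TPM in CM10 (6.75, limma adjusted p = 0.003444). SLC24A4, an ion exchanger that helps end the odorant response in mouse (6.31), and CAMK2G, a calcium/calmodulin-dependent kinase (4.25), also rose. None of these 4, which had been called higher on the same libraries, overlapped between CM10 libraries and controls. The share of all genes without such an overlap was not counted. GNB1, a G protein beta subunit (fell by 4.22), and ARRB2, a beta-arrestin (fell by 3.38), were the 2 lower. The GNB1 call was lost without CTRL_CM10 replicate 1 or 3 or CM10 replicate 2 or 3, and the ARRB2 call without CTRL_CM10 replicate 1 or 3 or CM10 replicate 3. The CAMK2G call was lost without CTRL_CM10 replicate 3. With no filter on low values every cascade call in CM10 was lost, higher or lower. By the rule of at least 20 such positions, GRK3 and SLC24A4 transcripts carry the repeated words and NCAM2 and CAMK2G transcripts do not. Transcripts below that limit may still hold some of the words. All 4 higher genes were also at 220.97 TPM or more in replicates 1 and 3 of shZBTB7B, the hairpin libraries rich in repeat-carrying genes, and at 8.15 TPM or less in replicate 2. The part of the repeats in these changes was not tested.

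In shZBTB7B, limma called 1 cascade gene, ADCY3, lower, and 0 higher, where 11% and 0.717% of all genes were called (median log2 fold change -0.20 beside -1.45 for all genes). ADCY3 was at 17.42, 13.51 and 22.01 TPM in the 3 CTRL_shZBTB7B libraries and listed at 0 in all 3 hairpin libraries (limma adjusted p = 0.03836). It passed the filter on low values through its control libraries alone, so a call could only be in the lower direction. It was also listed at 0 in CM10 replicates 2 and 3. As with every call in this comparison, it was lost without any 1 of the 5 libraries named above and with quantile normalization.

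Receptor export and receptor choice factors are proteins that bring receptors to the membrane or act on receptor genes in the nucleus. Of 17 such genes, 14 were tested in CM10, with 1 called higher and 1 lower (median 0.05), and 15 in shZBTB7B, with 0 called higher and 1 lower (median -1.25), where 31.9% and 11.7% of all genes were called. REEP3, of a family that shapes the endoplasmic reticulum, was at 37.76, 2.37 and 7.26 TPM in CTRL_CM10 and at 201.82, 241.53 and 261.42 TPM in CM10 (log2 fold change 4.52, limma adjusted p = 0.006006). The REEP3 call was lost with no filter on low values (limma adjusted p = 0.05918). RTP4, an interferon-induced relative of RTP1, was the lower gene of the CM10 comparison, with 7.06, 8.17 and 3.97 TPM in controls and 1.45, 0 and 0 TPM in CM10 (limma adjusted p = 0.02608). Its call was lost in 8 of 10 alternatives, among them quantile normalization (-1.58, limma adjusted p = 0.1041, range 0.01148 to 0.1055) and every library left out except CM10 replicate 1. LDB1, which holds enhancers of receptor genes together in mouse olfactory neurons, was at 61.44, 88.70 and 50.17 TPM in CTRL_shZBTB7B and at 2.99, 14.69 and 0 TPM in shZBTB7B (fell by 4.05, or by 2.60 relative to the median, limma adjusted p = 0.04695). EBF1 and ATF5, transcription factors of olfactory neurons, had means of 19.639 and 16.561 TPM over the 12 libraries and were not called in either comparison.

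The members share their stretch of chromosome with genes that are expressed widely or in blood. Of the 12 genes of other kinds between the outermost members, the mean reached 1 TPM in 7, and 1, TRIM5, was above 0 in all 12 libraries. The median of their means was 2.90 TPM. HBB, the adult beta-globin gene, had the highest values: 344.30, 208.06 and 1063.23 TPM in CTRL_CM10 replicates 1 to 3, 771.69, 2205.29 and 980.38 TPM in CM10, 109.48, 397.39 and 64.96 TPM in CTRL_shZBTB7B, and 0, 43.75 and 1363.64 TPM in shZBTB7B. HBB did not separate either perturbation from its controls. The summed level of 6 erythroid marker genes, HBB among them, ran from 0 in shZBTB7B replicate 1 to 5970.81 TPM in CM10 replicate 2. High values of HBB stood beside members at 0, and a link between their levels was not tested.

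**Figure D4:**
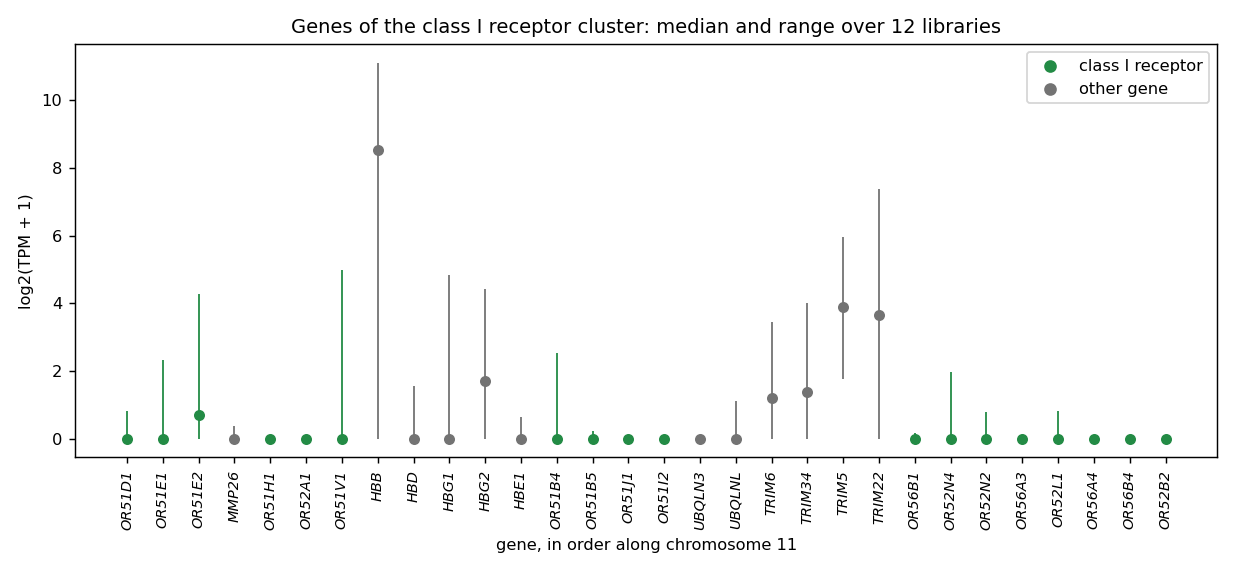
Level as log2(TPM + 1) of the 30 genes of the class I span, in their order along chromosome 11, with a point at the median and a line over the range of the 12 libraries (green for class I receptors, grey for other genes). The line of HBB reaches highest (2205.29 TPM), TRIM5 is the gene whose line does not touch 0, and OR51E2 is the receptor whose median is above 0.

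Of 31 genes within or beside the span, receptors apart, 20 were tested in CM10, with 1 called higher and 2 lower, and 21 in shZBTB7B, with 0 higher and 5 lower. Their median log2 fold change was -0.86 in CM10 and -1.97 in shZBTB7B, beside -1 and -1.45 for all genes, and 31.9% and 11.7% of all genes were called. TRIM68, an E3 ubiquitin ligase, was at 8.58, 3.68 and 1.93 TPM in CTRL_CM10 and at 73.87, 49.90 and 83.29 TPM in CM10 (log2 fold change 3.75, limma adjusted p = 0.007158), and its transcripts carry the repeated words. TRIM22, an antiviral gene, fell by 3.36 (limma adjusted p = 0.0158), and TAF10, a subunit of a general transcription factor, fell by 2.63 (limma adjusted p = 0.03331). The TRIM22 call was lost without CTRL_CM10 replicate 1 or 3 or CM10 replicate 3, and the TAF10 call with any library left out except CM10 replicate 1. The TRIM68 call was lost without CTRL_CM10 replicate 3 (limma adjusted p = 0.05714). Leukocyte markers moved in the same comparison: 4 of 6 tested were called lower in CM10, where 18.3% of all genes were called lower. CD52 fell by 5.11, LAPTM5 fell by 4.95, CD3E fell by 3.01, and CD3D was listed at 0 in all 3 CM10 libraries. The summed level of the leukocyte genes was 8.82 to 21.06 TPM in CM10 and 109.02 to 341.28 TPM in controls. CD3D passed the filter on low values through its control libraries alone, so a call could only be in the lower direction. Of 6 colon epithelium genes tested, EPCAM and KRT18 were also called lower. Of the erythroid, smooth muscle, gastric and prostate genes, 4, 5, 5 and 2 were tested in CM10, and 0 were called. How these marker calls change without 1 library was not examined. The part of leukocytes and epithelial cells in the changes of TRIM22, TAF10 and RTP4 was not tested. In shZBTB7B the lower genes were STIM1, a calcium sensor of the endoplasmic reticulum (fell by 4.47), SMPD1, a lysosomal sphingomyelinase (fell by 4.07), TPP1, a lysosomal peptidase (fell by 5.12), and DCHS1, a protocadherin (fell by 2.92), each at a limma adjusted p of 0.03836, and DNHD1 (limma adjusted p = 0.04718). DNHD1 was at 1.29, 2.34 and 1.05 TPM in controls and listed at 0 in all 3 hairpin libraries, and its fitted value lay 0.13 above the median of all genes and turned to 0.11 with quantile normalization. DNHD1 and DCHS1 passed the filter on low values through their control libraries alone, so a call could only be in the lower direction. ILK and CAVIN3, the most abundant of these genes after HBB, were not called in either comparison.

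Other chemosensory receptors, the taste, trace amine and vomeronasal receptors, were mostly below the filter. Of 20 in the tables, 3 were tested in CM10, of which 2 were called higher, and 4 in shZBTB7B, of which 1 was called lower. Of all genes tested, 13.6% were called higher in CM10 and 11% were called lower in shZBTB7B. With 3 and 4 receptors tested, a share of receptors called cannot be set beside these. TAS2R4, a bitter taste receptor, was at 28.09, 0.31 and 3.58 TPM in CTRL_CM10 and at 271.52, 313.91 and 352.97 TPM in CM10 (log2 fold change 5.80, limma adjusted p = 0.003444). The TAS2R4 call was lost with no filter on low values (limma adjusted p = 0.05646). TAS1R1, a subunit of the umami receptor, was at 2.17, 0 and 0 TPM in CTRL_CM10 and at 1.65, 11.55 and 15.02 TPM in CM10 (2.46, limma adjusted p = 0.04207). Its groups overlapped, and the call was lost in 7 of 10 alternatives, among them every library left out except CM10 replicate 1. TAS2R14, a bitter receptor with many ligands, was at 2.11, 3.37 and 2.12 TPM in CTRL_shZBTB7B and listed at 0 in the other 9 libraries (limma adjusted p = 0.03836). It passed the filter through its control libraries alone, so a call could only be in the lower direction. Its fitted value was -0.35 relative to the median of all genes, and with quantile normalization it was -0.19 (limma adjusted p = 0.7826, range 0.01007 to 0.7826). TAS2R4 transcripts carry the repeated words, and in the 3 shZBTB7B libraries the gene was at 256.1, 1.09 and 224.79 TPM. In each of the 5 libraries rich in repeat-carrying genes TAS2R4 was above the highest level of any class I receptor, 30.32 TPM. TAS2R20 and TAAR5 had means of 5.476 and 3.558 TPM. TAS2R20 was not called in either comparison, and TAAR5 did not pass the filter in either table.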

How the data were processed

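RNA of HT29 libraries was sequenced by the authors after probe capture. Their reads were aligned with HISAT to hg19, and RSEM gave the gene levels (versions: not given in the sources used here). The authors deposited 2 tables of 18665 genes, each with 6 libraries, whose headers name no unit. The deposited values were taken as TPM from equal column sums and from the study's methods. TPM carries no depth, and 1 very abundant gene lowers all others of its library.

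Control columns were matched to libraries by the table they stand in. CM10 and shZBTB7B were each set against their controls by limma 3.58.1 (R 4.3.3) on log2(TPM + 1), which understates changes of low genes, over genes with TPM of at least 1 in at least 3 of 6 libraries, with a variance trend, two-sided, Benjamini-Hochberg adjusted over all genes tested and called at an adjusted p under 0.05. The fit was tested on simulated normal values with known changes added. Such values lack the many exact 0 values of these libraries, so that test cannot show how the fit handles them. Single values per library were compared by exact permutation tests, with Python 3.11.15, numpy 2.4.6, pandas 2.3.3 and scipy 1.17.1.

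Positions and coding sequences came from GENCODE v44 lifted to GRCh37. Repeated words were 18-base words found at 1000 or more positions of chromosome 11 with at least 8 distinct 3-base words in them, and a gene carried them where its coding transcripts held at least 20 positions (17951 genes, 96.2%, were searched). Members, lists and tests were chosen with earlier results of these data known.

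Genes were named by rule: members that passed the filter, the 12 with the highest mean, the 6 with the highest single value, OR51E1, OR51E2, OR51B4 and OR51B5, members at 0 throughout, and for other lists the called genes and up to 4 with the highest mean. Genes of the marker lists, RTP2 and class II receptors were named outside that rule, after their values were seen. Alternatives were a pseudocount of 0.1, no filter, quantile normalization, the replicate number as a block, leaving out each library, other detection limits, rescaling without MTRNR2L genes, and leaving out OR51E2, and, chosen after the data were seen, leaving out repeat-carrying receptors or the libraries rich in them.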

Additional observations from a re-analysis of the deposited data

How the results depend on the processing

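Counts of called genes depended on the settings. CM10 calls, 4003 as reported, were 1964 with a pseudocount of 0.1, 853 with no filter and 1257 to 5776 without 1 library. shZBTB7B calls, 1602 as reported, were 468 with a pseudocount of 0.1, 372 with no filter, 0 with quantile normalization (limma, 3085 genes at an unadjusted p under 0.05) and 0 to 6887 without 1 library. Where 1 library left out gave 0 limma calls, 3327 to 4581 genes were at an unadjusted p under 0.05. Genes called higher were 42.6% of the calls in CM10 and 6.1% in shZBTB7B, and in CM10 63.6% with a pseudocount of 0.1, 66.7% with no filter 55.5% with quantile normalization and 34% to 71% without 1 library. Replicate numbers did not pair the libraries: deviations of same-numbered libraries correlated at -0.08, -0.05 and -0.06 in CM10 and at 0.01, 0.03 and -0.07 in shZBTB7B. With the replicate block 1 class I receptor, OR51E2, was called in CM10 (adjusted p = 0.02323, range over the alternatives 0.009517 to 0.322), 18.5% of shZBTB7B calls were higher, and no other count of calls moved by over 1.5 times. The number of members called without 1 library was 0 to 1 in CM10 and 0 in shZBTB7B.

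Direction turned in few results. Members above 0 in CM10 minus controls (-0.67) became 0.17 without CTRL_CM10 replicate 1, with a range of -1.33 to 0.17 without 1 library. The CM10 summed level (1.02) became -1.38 without OR51E2 and likewise -1.38 without repeat-carrying members, and was 0.19 to 2.32 without 1 library. With quantile normalization OR51E1 was 0.64 and DNHD1 0.11. The shZBTB7B members above 0 were -2.17 to -0.17 and their summed level 0.53 to 2.46 without 1 library. The class I minus class II share was 0.37 to 3.09 points without 1 library. In the cascade, export and choice, span and other chemosensory lists, 13 genes were called in CM10 and 8 in shZBTB7B. Calls of marker genes and class II receptors were not followed through the alternatives. Of the 13, 5 to 13 kept the call without 1 library, 7 with a pseudocount of 0.1, 1 with no filter and 12 with quantile normalization. Of the 8, 0 kept it with quantile normalization and without 5 of the 6 libraries, 4 with a pseudocount of 0.1 and 4 with no filter. The causes were not tested. TPM gives no depth, so how far a value of 0 reflects depth is unknown.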

Other observations

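The class II receptor OR3A2 was above every class I receptor in each of the 4 libraries that held the OR51E2 values above 8 TPM. OR3A2 was at 14.83, 0 and 0.29 TPM in CTRL_CM10 replicates 1 to 3, at 102.27, 94.46 and 71.64 TPM in CM10, at 0.18, 0.07 and 0 TPM in CTRL_shZBTB7B, and at 68.64, 0.90 and 78.70 TPM in shZBTB7B. OR7D2 was at 15.62, 40.28 and 24.85 TPM in CM10 and at 2.48, 0.74 and 0 TPM in CTRL_CM10, and at 5.71, 0.22 and 27.10 TPM in shZBTB7B. OR4D1 and OR5A1 were at 52.87 and 51.78 TPM in shZBTB7B replicate 3, the library of the OR51V1 value of 30.32 TPM, and listed at 0 in the other 11. The transcripts of these 4 class II receptors carry the repeated words and that of OR51V1 does not. OR51V1 was not alone in this: the class II receptors OR1N2 and OR2L3 do not carry them either. They were at 34.17 and 20.97 TPM in shZBTB7B replicate 3, and OR2L3 was listed at 0 in the other 11 libraries. In all, 4 class II receptors had a mean above that of OR51E2.

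Receptors of both classes were split by whether their transcripts carry the repeated words, a split chosen after the data were seen. Of the 31 that carry them, 9.7%, 16.1% and 12.9% were above 0 in CM10 replicates 1 to 3 and 16.1%, 22.6% and 25.8% in shZBTB7B. Of the 127 others, it was 3.1%, 2.4% and 6.3% in CM10 and 2.4%, 8.7% and 9.4% in shZBTB7B. In the controls the carriers were at 19.4%, 3.2% and 3.2% in CTRL_CM10 and 16.1%, 9.7% and 6.5% in CTRL_shZBTB7B, and the others at 9.4%, 4.7% and 3.9% and at 13.4%, 15% and 13.4%. These shares rest on few carriers: 3 to 8 were above 0 in perturbed libraries and 1 to 6 in controls. In CTRL_CM10 replicates 2 and 3 it was 1 carrier each. By share, carriers were above the others in all 6 perturbed libraries and below them in 4 of 6 controls. The part of the repeats in this was not tested.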
